A study of Mus musculus with 30 samples.

Results

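The genes described here are 6 members of the S100 family, S100a1, S100a13, S100a4, S100a6, S100a10 and S100a11, in mouse embryonic stem cells (ESCs). They were chosen by their response to a galactose medium in earlier results of these data, so their differences between that medium and its control are given as descriptions, without a test. All 6 are in the tables of 2 RNA-seq experiments, which list 52630 and 55487 genes. In each experiment 5 of the 6 passed the filter on low counts, and S100a4 did not.

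Both experiments used the wild-type ESC line E14tg2a, and every medium contained the cytokine LIF. In the time course, cells in Serum/LIF (the 0 h control) were compared with cells moved to Enhanced Metabolic Media (EMM) for 3, 9 and 24 h, with 3 libraries in each of 4 groups. The control is labelled 0 h, while the treatment note of the series speaks of 24 h in Serum/LIF, and which applies is not settled by the labels. EMM is the Serum/LIF medium with its D-glucose and pyruvate replaced by D-galactose, a sugar that cells feed into glycolysis only slowly. In the passage experiment, cells grew for 10 passages (P10) or 20 passages (P20) in 1 of 3 media, Serum/LIF, EMM and 2i/LIF, with 3 libraries in each of 6 groups. 2i/LIF contains inhibitors of the kinases MEK and GSK3 and holds ESCs in a naive state. All cells came from a single line, so the 3 libraries of a group are repeat experiments and not different genotypes. Total counts ran from 24074132 to 35301962 in the 12 time-course libraries and from 6944904 to 27912928 in the 18 passage libraries, of which 2 held fewer than 8000000. All 6 defining ESC markers (Pou5f1, Nanog, Sox2, Zfp42, Esrrb and Klf4) were above the floor of 3 counts in every group.

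S100 proteins are small EF-hand proteins that pair up and, mostly on binding calcium, take hold of other proteins. S100A10 is the exception that does not bind calcium, and it is known for a stable complex with annexin A2 at the plasma membrane, while S100A11 binds annexin A1 and S100A6 binds the calcyclin-binding protein CACYBP and annexins. S100A1 is best known as a regulator of calcium cycling in heart muscle, S100A13 for the release of FGF1 from cells without a signal peptide, and S100A4 for its binding to non-muscle myosin and its use as a fibroblast marker.

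The 6 genes lie on chromosome 3 in 2 stretches (GRCm38 coordinates from GENCODE M21). S100a1 (90511034 to 90514392, minus strand), S100a13 (90514435 to 90524581), S100a4 (90603771 to 90606045) and S100a6 (90612882 to 90624181) share 113.1 kb. S100a11 (93520488 to 93526287) and S100a10 (93555080 to 93564643) share 44.2 kb, and 2.9 Mb separate the stretches. The last 5 named are all on the plus strand. S100a1 and S100a13 point away from each other, and the annotated positions where they start are 43 bases apart. RefSeq, used for the windows below, puts the start of S100a1 at 90514330 and that of S100a13 at 90514435. S100a4 overlaps Gm42674 on the same strand, so reads there cannot be assigned with certainty to either gene.

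The start regions of S100a1 and S100a13 are shown because these 2 genes shared a pattern across the media, and those of S100a6 and S100a11 because these genes departed from it. Each window holds 250 bases before and 50 after the RefSeq start (GRCm38.p6), read 5′ to 3′ on the strand of the gene. Capitals mark matches to 7 short motifs, which were chosen after the windows had been seen.
S100a1, chr3:90514281-90514580, minus strand: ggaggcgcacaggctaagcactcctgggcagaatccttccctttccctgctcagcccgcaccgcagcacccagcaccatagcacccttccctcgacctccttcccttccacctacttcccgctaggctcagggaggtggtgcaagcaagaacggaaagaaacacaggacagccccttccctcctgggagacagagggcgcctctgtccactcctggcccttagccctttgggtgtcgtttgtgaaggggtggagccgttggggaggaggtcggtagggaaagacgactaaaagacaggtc
S100a13, chr3:90514185-90514484, plus strand: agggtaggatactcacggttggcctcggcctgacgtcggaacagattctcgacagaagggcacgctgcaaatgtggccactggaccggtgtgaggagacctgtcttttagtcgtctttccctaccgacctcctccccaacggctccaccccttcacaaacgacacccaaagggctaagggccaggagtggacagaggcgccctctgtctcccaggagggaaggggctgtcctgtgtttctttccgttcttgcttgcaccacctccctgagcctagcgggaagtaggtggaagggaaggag
S100a6, chr3:90612644-90612943, plus strand: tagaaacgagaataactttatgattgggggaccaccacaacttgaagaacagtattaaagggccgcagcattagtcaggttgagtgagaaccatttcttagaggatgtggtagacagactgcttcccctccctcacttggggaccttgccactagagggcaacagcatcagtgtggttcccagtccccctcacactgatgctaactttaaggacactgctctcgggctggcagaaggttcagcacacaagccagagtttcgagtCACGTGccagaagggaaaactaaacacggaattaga
S100a11, chr3:93520246-93520545, plus strand: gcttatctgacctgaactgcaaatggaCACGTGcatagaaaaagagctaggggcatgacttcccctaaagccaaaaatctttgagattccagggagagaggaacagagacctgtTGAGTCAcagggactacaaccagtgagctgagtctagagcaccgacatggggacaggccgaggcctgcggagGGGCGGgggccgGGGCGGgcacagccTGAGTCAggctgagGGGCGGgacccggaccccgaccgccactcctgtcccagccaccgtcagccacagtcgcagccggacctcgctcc

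The windows of S100a1 and S100a13 cover the same 204 bases on opposite strands, and GC made up 61.0% and 59.3% of them, against a median of 52.7% over 32851 RefSeq windows of this length. They held 11 and 14 CpG dinucleotides, where the median window held 7. On either strand, neither contained the AP-1 motif TGAGTCA, the TEAD motif GGAATG, the STAT motif TTCNNNGAA, the ESRRB motif AAGGTCA, the E-box CACGTG, the GC box GGGCGG or the TATA box TATAAA. The window of S100a6 held 1 E-box, which starts at base 15 after the start and which 7.2% of all windows contain. That of S100a11 held 2 AP-1 motifs (in 5.2% of all windows), 3 GC boxes (in 35.7%) and 1 E-box. Of the remaining motifs, GGAATG occurred in 14.7% of all windows, TTCNNNGAA in 8.3%, AAGGTCA in 4.7% and TATAAA in 13.6%. These are matches of letters only. The window of S100a4 had 1 TATA box 31 bases before the start, and S100a10 is only named here.

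The time course addressed how far gene expression is reprogrammed in the first hours after the change of medium. S100a1 and S100a13 had the largest differences among the members. Values are normalized counts, that is, counts divided by the effective size of the library (total count times its TMM scaling factor) and multiplied by the mean effective size of the experiment. S100a13 read 94.5, 85.9 and 98.5 in the 3 Serum/LIF libraries, 384, 393 and 391 after 3 h in EMM, 697, 661 and 678 after 9 h, and 772, 773 and 782 after 24 h. Every EMM library was above every Serum/LIF library, and the ranges of the 4 groups did not touch. Against Serum/LIF its log2 fold change was 2.07 ± 0.07 (SE of the fit, n = 3 per group) at 3 h, 2.87 ± 0.07 at 9 h and 3.06 ± 0.07 at 24 h, a level 8.36 times that of the control.

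S100a1, its neighbour on the opposite strand, read 41.2, 43.4 and 36.9 in Serum/LIF, then 62.8, 57.9 and 61.3 at 3 h, 151, 143 and 163 at 9 h, and 294, 369 and 319 at 24 h. The groups were again separate, in the order of time. Its log2 fold change was 0.58 ± 0.15 at 3 h, 1.90 ± 0.13 at 9 h and 3.00 ± 0.12 at 24 h, so the 2 genes stood at a similar multiple of the control at 24 h, but S100a13 was further from it at 3 h. Per kilobase of exon, S100a13 was 1.92 to 2.59 times as abundant as S100a1 in the Serum/LIF libraries, 5.94 to 6.59 times at 3 h, 4.04 to 4.48 times at 9 h and 2.04 to 2.55 times at 24 h. The ratio in Serum/LIF and at 24 h therefore covered overlapping ranges, while those at 3 and 9 h lay above both.

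**Figure D1:**
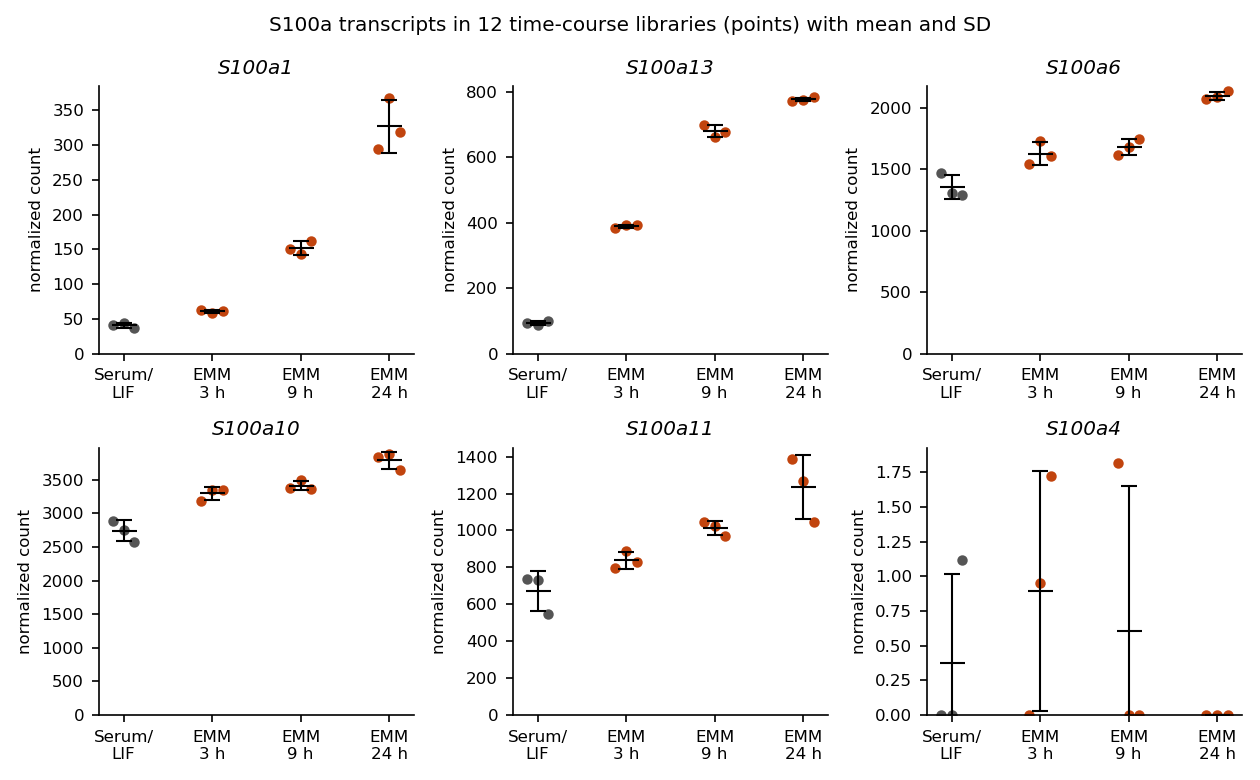
Normalized counts (linear y axes from 0) of the 6 genes in Serum/LIF (grey) and after 3, 9 and 24 h in EMM (orange), with 1 point per library and the mean and SD in black. S100a13 and S100a1 stand at 776 and 327 at 24 h against 92.9 and 40.5 in Serum/LIF, S100a6, S100a10 and S100a11 differ by less than 2-fold, and S100a4 has at most 2 counts in any library.

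The calcium-binding S100a6 and S100a11 and the annexin A2 partner S100a10 were already abundant in Serum/LIF and differed by smaller factors. S100a6 read 1466, 1303 and 1293 in Serum/LIF and 2069, 2089.5 and 2134 at 24 h, with means of 1626 ± 92.7 (SD, n = 3) at 3 h and 1681 ± 67.1 at 9 h. The ranges at 3 and 9 h overlapped each other, and both lay above Serum/LIF and below 24 h. The log2 fold change was 0.27 ± 0.06 at 3 h, 0.31 ± 0.06 at 9 h and 0.63 ± 0.06 at 24 h.

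S100a10, the most abundant of the 6 per kilobase in Serum/LIF, read 2889, 2759.9 and 2577 in Serum/LIF and 3844, 3879 and 3648 at 24 h. Its 3 and 9 h libraries lay between these, at 3192 to 3356 and 3368 to 3495, without overlap between any groups. The log2 fold change was 0.27 ± 0.04, 0.32 ± 0.04 and 0.47 ± 0.04 at the 3 times. S100a11, the annexin A1 partner, read 735, 730.5 and 546 in Serum/LIF and 1387, 1266 and 1045 at 24 h. The control libraries of S100a11 were the least even of the members, and its 9 h and 24 h ranges overlapped, yet all 9 EMM libraries exceeded all 3 controls. Its log2 fold change was 0.32 ± 0.11, 0.60 ± 0.11 and 0.88 ± 0.11.

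At 24 h, 2 of the 5 members that passed the filter (S100a1 and S100a13) were more than 2-fold above Serum/LIF and 0 were as far below it, with a median log2 fold change of 0.88 where the median of all 16049 tested genes was 0.00. In that comparison 3.50% of all tested genes were called higher and 4.69% lower, a call being an adjusted p under 0.01 and a difference of over 2-fold. Since the members were chosen on this contrast, nothing is read from their count. S100a4 had 0 to 2 counts in each of the 12 libraries, which is under the floor of 3 counts, and no fold is given.

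After 10 or 20 passages the members separated into unlike patterns. In EMM, S100a1 lay above Serum/LIF at both passages and S100a13 at P20, with overlapping ranges at P10. S100a6 lay far below Serum/LIF, and S100a10 and S100a11 were close to it. In the same passages 2i/LIF gave a second medium, and the response to it was not the stated ground for choosing the genes. The genes were chosen with earlier results of these data known, however, and the 2i/LIF comparisons share the Serum/LIF or EMM libraries with that choice.

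S100a1 read 21.2, 19.8 and 22.0 in Serum/LIF at P10, 45.0, 46.8 and 64.1 in EMM, and 119, 195 and 140.1 in 2i/LIF. At P20 it read 11.6, 21.4 and 18.8 in Serum/LIF, 98.6, 104 and 102 in EMM, and 63.4, 45.8 and 50.8 in 2i/LIF. Both media held more of the transcript than Serum/LIF in every library at both passages, but 2i/LIF was the highest at P10 and EMM at P20. Against Serum/LIF, EMM differed by 1.27 ± 0.25 (log2, SE) at P10 and 2.53 ± 0.24 at P20, without a test. In 2i/LIF S100a1 rose over Serum/LIF by 2.84 ± 0.24 at P10 (edgeR quasi-likelihood test, adjusted p = 9.64e-09) and by 1.56 ± 0.25 at P20 (adjusted p = 4.19e-05).

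The order of EMM and 2i/LIF for S100a1 turned over between the passages. EMM was lower than 2i/LIF by a log2 fold change of -1.57 ± 0.22 at P10 (edgeR, adjusted p = 9.34e-06). At P20 the log2 fold change was 0.96 ± 0.22 (adjusted p = 0.000888), which passed the p threshold and not the 2-fold threshold, and without replicate 1 of 2i/LIF at P20 it was 1.07 and passed both. The difference between these differences was 2.53 ± 0.31 (edgeR interaction, adjusted p = 5.40e-06). Within 2i/LIF the transcript fell from P10 to P20 by 1.54 ± 0.22 on the log2 scale (adjusted p = 2.68e-05), and within EMM the log2 fold change from P10 to P20 was 1.00 ± 0.22 (adjusted p = 0.00178), which missed the 2-fold threshold by a margin smaller than its SE. Without replicate 3 of EMM at P10 it was 1.13, and without replicate 1 of EMM at P20 it was 1.02, both past the threshold. In Serum/LIF the log2 fold change over the same passages was -0.26 ± 0.27 (adjusted p = 0.573).

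S100a13 followed S100a1 with a wider spread. It read 43.4, 61.5 and 37.0 in Serum/LIF at P10, 59.5, 63.9 and 96.2 in EMM, and 143, 132 and 204 in 2i/LIF. At P20 it read 47.3, 22.9 and 36.3 in Serum/LIF, 104, 89.5 and 96.5 in EMM, and 96.3, 42.9 and 97.7 in 2i/LIF. The EMM and Serum/LIF ranges overlapped at P10 and not at P20, and the 2i/LIF libraries stood clear of both other media only at P10. EMM differed from Serum/LIF by 0.58 ± 0.33 at P10 and 1.47 ± 0.32 at P20, without a test.

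In 2i/LIF S100a13 rose over Serum/LIF by 1.76 ± 0.31 at P10 (edgeR, adjusted p = 7.42e-05) and by 1.13 ± 0.33 at P20 (adjusted p = 0.00703). The P20 call was lost without replicate 1 or replicate 3 of 2i/LIF (adjusted p = 0.0222 and 0.0543) and without replicate 2 or replicate 3 of Serum/LIF (0.0501 and 0.0175). EMM was lower than 2i/LIF at P10 by -1.18 ± 0.31 (adjusted p = 0.00311), and at P20 the log2 fold change was 0.34 ± 0.30 (adjusted p = 0.352). The P10 call was lost without replicate 3 of 2i/LIF (adjusted p = 0.0242) or without replicate 1 or 2 of EMM (0.0223 and 0.0162). The difference between them was 1.52 ± 0.43 (edgeR interaction, adjusted p = 0.00784) and missed the threshold in 7 of the 12 fits that left out 1 library (log2 1.17 to 1.56 among these 7, adjusted p from 0.0126 to 0.0274, where replicate 3 of 2i/LIF at P10, replicate 2 of 2i/LIF at P20, replicates 1 and 2 of EMM at P10 and each of the 3 EMM replicates at P20 had been left out).

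From P10 to P20 in 2i/LIF, S100a13 fell by 1.07 ± 0.30 on the log2 scale (edgeR, adjusted p = 0.00808). Without replicate 3 of 2i/LIF at P10 the adjusted p was 0.0544, and without replicate 2 of 2i/LIF at P20 it was 0.0501, when the fall was 0.73. In EMM and in Serum/LIF the log2 fold change of P20 against P10 was 0.44 ± 0.31 and -0.45 ± 0.34 (adjusted p = 0.268 and 0.390). Per kilobase, S100a13 was 0.840 to 1.03 times as abundant as S100a1 in EMM at P20 and 1.28 to 1.46 times at P10, without overlap between these passages. The ratio was 1.63 to 3.01 and 1.04 to 3.97 in Serum/LIF and 0.659 to 1.42 and 0.908 to 1.87 in 2i/LIF at P10 and P20, so the range in EMM at P20 overlapped that of 2i/LIF at either passage.

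**Figure D2:**
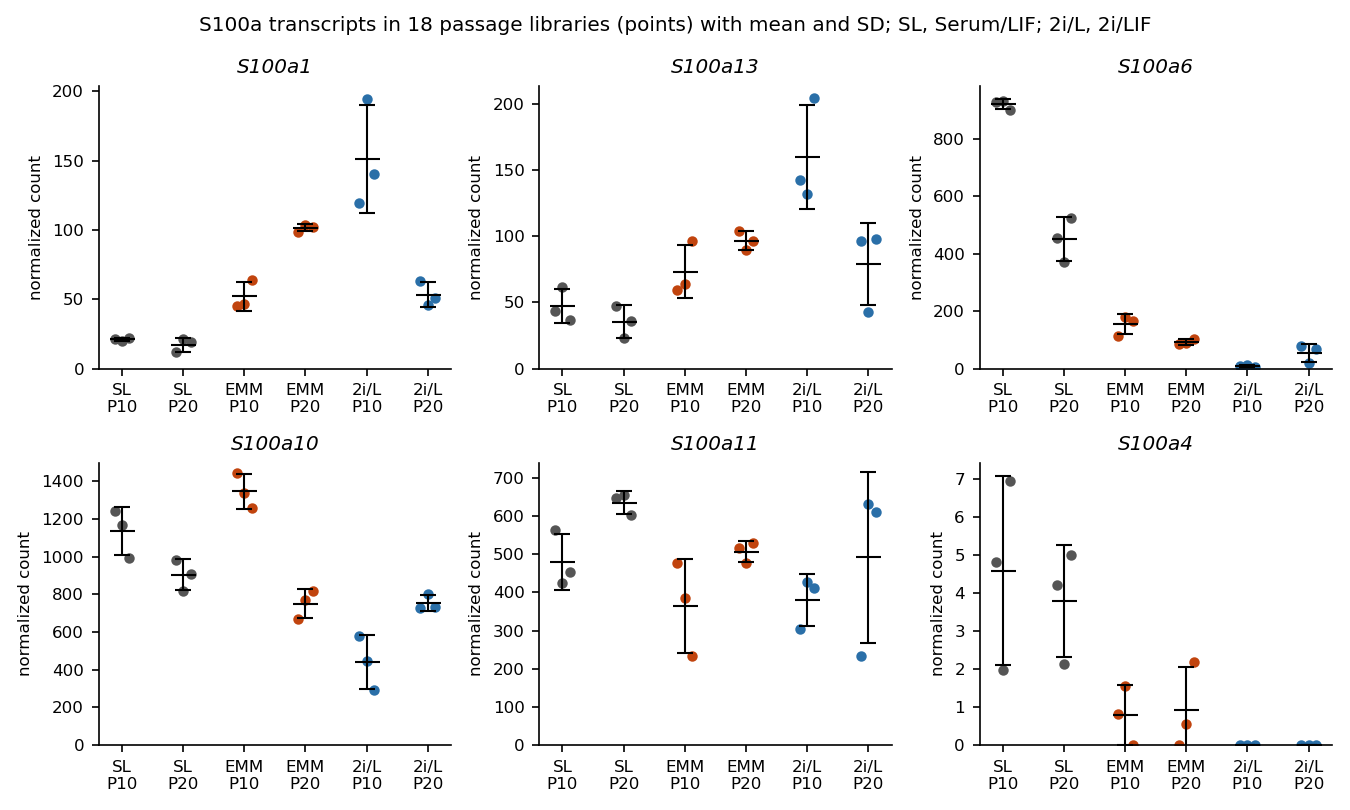
Normalized counts (linear y axes from 0) of the 6 genes in Serum/LIF (grey), EMM (orange) and 2i/LIF (blue) at P10 and P20, with 1 point per library and the mean and SD in black. S100a1 is highest in 2i/LIF at P10 and in EMM at P20, S100a6 has 901 to 931 in Serum/LIF at P10 against 4.07 to 11.6 in 2i/LIF, and S100a11 has 1 low library in 2i/LIF at P20 and 1 in EMM at P10.

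S100a6, a calcium sensor that was abundant in Serum/LIF, had the widest range of levels among the media. It read 929, 931 and 901 in Serum/LIF at P10, 114, 181 and 165 in EMM, and 9.42, 11.6 and 4.07 in 2i/LIF, where the counts themselves were 5 to 8. At P20 it read 456, 371 and 524 in Serum/LIF, 86.5, 87.8 and 104 in EMM, and 77.5, 19.2 and 69.0 in 2i/LIF. The 6 groups did not overlap, in the order Serum/LIF, EMM, 2i/LIF at both passages. The log2 fold change of EMM against Serum/LIF was -2.62 ± 0.27 at P10 and -2.27 ± 0.27 at P20, opposite in sign to the 0.63 of the 24 h comparison. The 2 experiments were processed separately and their levels are not compared.

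In 2i/LIF S100a6 fell below Serum/LIF by 6.91 ± 0.40 on the log2 scale at P10 (edgeR, adjusted p = 6.45e-11) and by 3.17 ± 0.30 at P20 (adjusted p = 7.36e-08). The difference between the passages was 3.74 ± 0.56 (edgeR interaction, adjusted p = 0.000111). EMM was above 2i/LIF by 4.29 ± 0.45 at P10 (adjusted p = 2.40e-07), and at P20 the log2 fold change was 0.90 ± 0.32 (adjusted p = 0.0220). Without replicate 1 or replicate 3 of 2i/LIF at P20 this last value was 1.13 (adjusted p = 0.00751) or 1.32 (adjusted p = 0.00624), past both thresholds. The interaction of this pair of media was -3.39 ± 0.59 (adjusted p = 0.000176).

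From P10 to P20 S100a6 rose in 2i/LIF by 2.70 ± 0.52 (edgeR, adjusted p = 0.000421), a call that was lost when only these 2 groups were fitted (2.77, adjusted p = 0.0130). In Serum/LIF it fell by 1.04 ± 0.24 (adjusted p = 0.00794). The fall in Serum/LIF lost its call when any 1 of the 6 Serum/LIF libraries was left out (adjusted p from 0.0161 to 0.0538, log2 fold change from -1.16 to -0.91). In EMM the log2 fold change was -0.69 ± 0.29 (adjusted p = 0.0634).

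Some marker lists of other cell types followed S100a6 in part. Fibroblast and trophoblast markers were, like S100a6, highest in Serum/LIF, but fibroblast markers were higher at P20 than at P10 there while S100a6 was lower, and trophoblast markers were lower in EMM than in 2i/LIF while S100a6 was higher. The summed level of 7 fibroblast markers was 2226 to 2664 normalized counts in Serum/LIF at P10 and 3579 to 7120 at P20, against 152 to 364 in EMM and 45.0 to 98.7 in 2i/LIF. In these groups between 1 and 5 of the 7 were at or under the floor of 3 counts in every library, namely Lum in Serum/LIF, Col1a2, Col3a1, Dcn, Lum and Postn in EMM at P10, Lum and Postn in EMM at P20, and Col3a1, Dcn and Postn in 2i/LIF. The summed level of 7 trophoblast markers, which include the epithelial keratins Krt8 and Krt18, was 8444 to 9822 in Serum/LIF at P10 and 4379 to 6130 at P20, against 553 to 782 in EMM and 872 to 1943 in 2i/LIF, and Elf5 was at the floor in EMM and 2i/LIF, with Gata3 also in 2i/LIF at P20. In the time course the trophoblast sum was 4410 to 4812 in Serum/LIF and 7964 to 8325 at 24 h, and the defining trophoblast gene Elf5 was at the floor in all 4 groups. The fibroblast sum was 1805 to 1892 in Serum/LIF and 1258 to 1482 at 24 h, while S100a6 was higher at 24 h. The sum of 8 endoderm markers did not follow this order, at 3821 to 4247 in Serum/LIF, 4239 to 4911 in EMM and 2241 to 3346 in 2i/LIF at P10, and 3237 to 4525, 1995 to 2344 and 5519 to 6325 at P20. In the time course, where S100a6 was higher in EMM, the endoderm sum was higher too and without overlap, at 5364 to 6115 in Serum/LIF, 7293 to 7875 at 3 h, 6808 to 7243 at 9 h and 7452 to 8174 at 24 h. The sum of 4 mesoderm markers was 324 to 935 in Serum/LIF, 199 to 281 in EMM and 727 to 1014 in 2i/LIF at P10, and 431 to 455, 167 to 188 and 263 to 383 at P20. In the time course the mesoderm sum was 665 to 713 in Serum/LIF, 654 to 688 at 3 h, 727 to 814 at 9 h and 586 to 644 at 24 h. At the floor were Foxa2 in EMM at P10 and in 2i/LIF, Sox7 in 2i/LIF at P10, Sox17 in 2i/LIF at P20, and Mesp1 in EMM and 2i/LIF. In bulk RNA fewer cells of a type and less RNA per cell cannot be told apart, and the part of other cell types in the S100a6 levels was not tested.

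S100a10 was lowest in 2i/LIF at P10 and otherwise varied by less than 2-fold. It read 1243, 1168 and 996 in Serum/LIF at P10, 1443, 1340.4 and 1258 in EMM, and 581, 444 and 293 in 2i/LIF. At P20 it read 985, 821 and 909.7 in Serum/LIF, 668, 768 and 817 in EMM, and 726, 802 and 732 in 2i/LIF. EMM thus lay above Serum/LIF at P10 and below it at P20, in each case without overlap, with log2 fold changes of 0.25 ± 0.16 and -0.27 ± 0.16 that were not tested.

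In 2i/LIF S100a10 fell below Serum/LIF at P10 by 1.39 ± 0.17 on the log2 scale (edgeR, adjusted p = 8.90e-07), and at P20 the log2 fold change was -0.26 ± 0.16 (adjusted p = 0.179). The difference between passages was 1.13 ± 0.23 (edgeR interaction, adjusted p = 0.00122). EMM was above 2i/LIF by 1.64 ± 0.17 at P10 (adjusted p = 1.64e-07), and at P20 the log2 fold change was -0.01 ± 0.16 (adjusted p = 0.977), a difference of -1.65 ± 0.23 between passages (adjusted p = 2.08e-05). From P10 to P20 the log2 fold change of S100a10 was -0.84 ± 0.16 in EMM (adjusted p = 0.000450) and 0.80 ± 0.17 in 2i/LIF (adjusted p = 0.000884), both under 2-fold, and -0.33 ± 0.16 in Serum/LIF (adjusted p = 0.168). Without replicate 1 of 2i/LIF at P10 the value in 2i/LIF was 1.06 (adjusted p = 2.95e-05) and passed both thresholds.

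S100a11 passed the test in none of the 7 comparisons and neither of the 2 interactions, which does not show that its levels were equal. At an unadjusted p under 0.05 it passed none of them either, and DESeq2 called it in none of the 7. It read 564, 424 and 453 in Serum/LIF at P10, 477, 385 and 234 in EMM, and 303, 428 and 411 in 2i/LIF. At P20 it read 648, 656 and 602 in Serum/LIF, 516, 477 and 529 in EMM, and 233, 632 and 611 in 2i/LIF. The lowest values of S100a11 belonged to the shallowest libraries, 234 to replicate 3 of EMM at P10 (7329835 counts in all) and 233 to replicate 1 of 2i/LIF at P20 (6944904 counts), and the part of depth in them was not tested.

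The log2 fold change of S100a11 between 2i/LIF and Serum/LIF was -0.33 ± 0.26 at P10 and -0.32 ± 0.25 at P20 (edgeR, adjusted p = 0.279 and 0.289). Between EMM and 2i/LIF it was -0.03 ± 0.27 and -0.00 ± 0.25 (adjusted p = 0.938 and 0.992), and the sign changed with the library left out. Between EMM and Serum/LIF it was -0.36 ± 0.26 at P10, with overlapping ranges, and -0.33 ± 0.25 at P20, with separate ranges. P20 lay above P10 by 0.40 ± 0.25 in Serum/LIF, 0.44 ± 0.26 in EMM and 0.41 ± 0.26 in 2i/LIF, none of which passed (adjusted p = 0.295, 0.193 and 0.220).

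**Figure D3:**
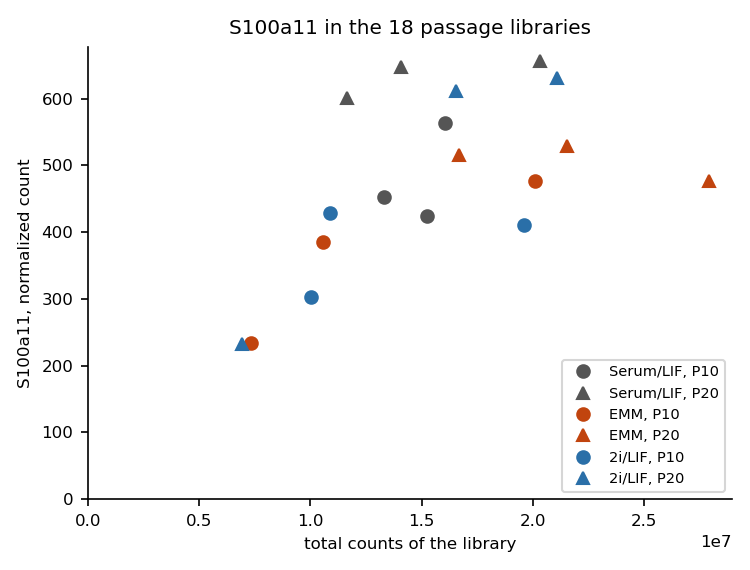
Normalized count of S100a11 (y axis, from 0) against the total count of the library (x axis, from 0) for the 18 passage libraries, coloured by medium, with circles for P10 and triangles for P20. The 2 libraries under 8000000 counts hold the 2 lowest values, 233 and 234, while the others run from 303 to 656.

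S100a4, the fibroblast-associated member, stayed close to the floor. Its counts in Serum/LIF were 5, 2 and 6 at P10 and 4, 3 and 4 at P20, in EMM they were 0 to 3, and in 2i/LIF they were 0 in all 6 libraries. S100a4 did not pass the filter, so no test or fold is given. A count of 0 allows up to 3 counts in a library. All such floors cover counting error only, and not the uncertain assignment of reads where S100a4 overlaps Gm42674.

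Counted over the 5 members that passed the filter, 2i/LIF at P10 had 2 higher (S100a1 and S100a13) and 2 lower (S100a6 and S100a10) than Serum/LIF, where 11.6% of all 16054 tested genes were called higher and 14.8% lower. At P20 it had 2 higher and 1 lower, against 6.77% and 15.5% of all genes. EMM against 2i/LIF at P10 had 4 members called, with S100a6 and S100a10 higher and S100a1 and S100a13 lower in EMM, against 22.1% of all genes called in either direction. At P20 edgeR and DESeq2 each called 0 members, 2 had an unadjusted p under 0.05, and 25.3% of all genes were called in either direction.

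From P10 to P20 the members called were 1 lower in Serum/LIF (S100a6), where 1.17% of all genes were called higher and 0.673% lower, and 1 higher (S100a6) and 2 lower (S100a1 and S100a13) in 2i/LIF, where the shares were 3.56% and 6.59%. In EMM edgeR called 0 members and DESeq2 called 1, 3 had an unadjusted p under 0.05, and 5.59% and 2.95% of all genes were called higher and lower. The interaction passed for 3 members between 2i/LIF and Serum/LIF and for 4 between EMM and 2i/LIF, where 20.0% and 32.3% of all genes passed. The third member of the first of these was S100a1, at -1.28 ± 0.35 (adjusted p = 0.00978), and 9 of the 12 fits that left out 1 library lost it (adjusted p from 0.0136 to 0.0552). With the replicate number as a block, which pairs the 2i/LIF libraries in it, its value was -1.26 (adjusted p = 0.0136) and the call was lost too. For the described comparisons of EMM with Serum/LIF, 1 member was more than 2-fold higher and 1 more than 2-fold lower at P10, beside shares of 6.67% and 10.5% of all genes called, and 2 were higher and 1 lower at P20, beside 3.44% and 6.19%.

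**Figure D4:**
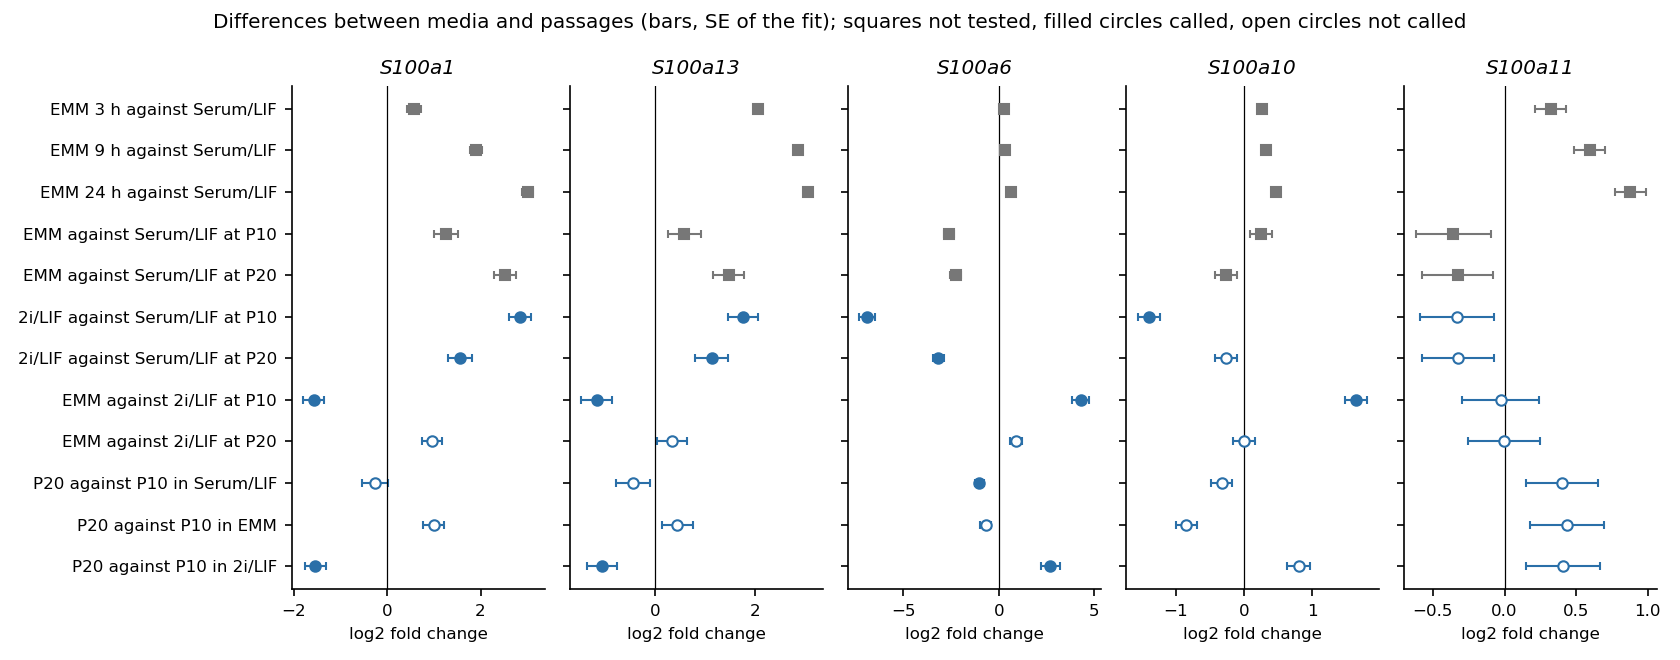
Log2 fold changes (x axes, a scale of its own for each gene) of 5 members in 12 comparisons (rows), with the SE of the fit as bars. Grey squares are the comparisons on which the members were chosen and were not tested, filled blue circles were called by edgeR, and open circles were not; S100a1 and S100a13 lie right of 0 wherever EMM or 2i/LIF is set against Serum/LIF, and S100a6 lies left of it in all 4 passage comparisons with Serum/LIF.

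Across libraries, described without a test, the genes whose log2 CPM tracked each member best in both experiments were Vps35l and A830018L16Rik for S100a1, Ubxn4 and Fuca2 for S100a13, Gsn and Krt18 for S100a6, Cavin1 and Serpinb6a for S100a10, and Arpc3 and Kmt5a for S100a11. Likeness was the lower of the Pearson correlations over the 12 time-course and the 18 passage libraries, among 14646 genes that passed the filter in both tables. For S100a6 and Gsn, which encodes the actin-severing protein gelsolin, these were 0.95 and 0.97. For S100a1 and S100a13 they were 0.86 and 0.86, which put S100a1 at rank 7 for S100a13 and S100a13 at rank 49 for S100a1. S100a6 correlated with S100a1 at 0.91 in the time course and at -0.84 over the passages. With Spearman correlation both genes named for S100a1 were again the top 2, 1 of 2 for S100a13 (Fuca2) and S100a6 (Gsn), and 0 of 2 for S100a10 and S100a11. Libraries of a group share their medium, so these values mostly restate the differences between groups.

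Of 12 other S100 genes, S100a14 and S100a16 passed the filter, and the other listed members had at most 10 counts in any library or no row in the tables. S100a14 was higher in EMM at 3 h by 2.03 ± 0.46 (edgeR, adjusted p = 0.00199) and at 9 h by 1.69 ± 0.48 (adjusted p = 0.00885), where 1.70% and 2.05% of all genes were called higher. Its counts were 1 to 5 in Serum/LIF, 14 to 16 at 3 h, 10 to 13 at 9 h and 3 to 10 at 24 h, so S100a14 passed the filter on low counts through the 3 h and 9 h groups in which it was high, and its calls there carry that selection. The 3 h call was lost without replicate 1 of Serum/LIF (1.70, adjusted p = 0.0110), and the 9 h call was lost in 5 of the 6 fits that left out 1 of its libraries, all but the one without replicate 2 of Serum/LIF (1.36 to 1.79, adjusted p from 0.0142 to 0.0392). At 24 h in EMM neither gene was called, with log2 fold changes of 0.94 ± 0.55 for S100a14 and -0.57 ± 0.16 for S100a16. S100a16 fell in 2i/LIF below Serum/LIF by 1.40 at P10 (edgeR, adjusted p = 0.00773) and 2.09 at P20 (adjusted p = 0.000477). The P10 call was lost in 5 of the 6 fits that left out 1 of its libraries, all but the one without replicate 3 of Serum/LIF (-1.59 to -1.20, adjusted p from 0.0111 to 0.0451). In the passages S100a14 passed the filter only through 2i/LIF at P20, where it is called higher than Serum/LIF, since it had at most 9 counts in any library of the other groups. It had 20, 24 and 35 counts in 2i/LIF at P20 and 0, 2 and 0 in EMM. With 3 counts per library as the floor in EMM, the mean in 2i/LIF (32.8 ± 14.6 normalized counts, SD, n = 3) was 14.8 times that floor. The ratio is not a lower bound, since it leaves out the spread of the 2i/LIF libraries.

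Of the annexins, several of which are S100 partners, Anxa7, Anxa9, Anxa10 and Anxa11 were called in no comparison with Serum/LIF in which they were tested. At 24 h in EMM, 4 of the 11 that passed the filter were called, all of them higher, against 3.50% of all genes higher and 4.69% lower. These were Anxa1 (1.14 ± 0.08), Anxa2 (1.13 ± 0.07), Anxa3 (1.20 ± 0.06) and Anxa5 (1.26 ± 0.06), and the median of the 11 was 0.15. The partner of S100A10, Anxa2, was also higher in EMM at P10 (1.04 ± 0.24, edgeR adjusted p = 0.00135) and P20 (1.28 ± 0.24, adjusted p = 0.000355), and lower in 2i/LIF at P10 (-2.40 ± 0.26, adjusted p = 3.34e-07) and P20 (-1.08 ± 0.25, adjusted p = 0.00125). The rise at P10 missed the 2-fold threshold with library totals alone (0.94), without a filter (0.97) and under a minimum of 10 counts per library (0.96). The fall in 2i/LIF at P20 missed it without replicate 3 of that group (-0.83). The level of Anxa2 in EMM at P20 was 3027 against 1243 in Serum/LIF, while S100a10 was 751 against 905.

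The partner of S100A11, Anxa1, was lower than Serum/LIF after passages in EMM (-1.67 ± 0.20 at P10 and -2.61 ± 0.20 at P20) and in 2i/LIF (-2.86 ± 0.21 and -2.74 ± 0.21). Anxa11, a partner of S100A6, stayed within 2-fold of Serum/LIF in all of these, from -0.65 in 2i/LIF at P10 to 0.29 in EMM at P20. Counted over the 10 annexins tested in the passages, 1 was higher and 2 lower in EMM at P10, against 6.67% and 10.5% of all genes, and 1 and 4 at P20, against 3.44% and 6.19%. Those lower were Anxa1 and Anxa8 (-2.41 ± 0.41) at P10, and Anxa1, Anxa3 (-1.46 ± 0.13), Anxa5 and Anxa8 (-2.07 ± 0.35) at P20. In 2i/LIF 1 was higher and 5 lower at each passage, against 11.6% and 14.8% at P10 and 6.77% and 15.5% at P20. One of the 4 lower in EMM at P20, Anxa5 (-1.01 ± 0.22), lost its call without replicate 1 or 2 of EMM (-0.98 and -0.97) or replicate 3 of Serum/LIF (-0.79). The 5 lower in 2i/LIF at both passages were Anxa1, Anxa2, Anxa3 (-4.29 ± 0.16 at P10 and -3.54 ± 0.16 at P20), Anxa5 (-1.34 ± 0.23 and -2.36 ± 0.25) and Anxa6 (-2.05 ± 0.13 and -1.06 ± 0.13), and the 1 higher was Anxa4 (2.27 at P10 and 2.06 at P20).

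Among 13 other known partners of S100 proteins, 3 were called at 24 h in EMM, all of them higher, against 3.50% of all genes higher and 4.69% lower. Ahnak, a giant scaffold protein that binds the complex of S100A10 and annexin A2, was higher by 2.01 ± 0.10 (edgeR, adjusted p = 2.59e-10), Ryr2, the calcium release channel that S100A1 regulates, by 1.22 ± 0.11 (adjusted p = 2.59e-07), and Kcnk3, a potassium channel, by 1.55. Ryr2 was higher in EMM at P10 (2.25 ± 0.16) and P20 (1.20 ± 0.15) as well. Of the 12 partners tested in the passages, EMM had 1 higher (Ryr2) and 2 lower at P10, against 6.67% and 10.5% of all genes, and at P20 the 1 called was Ryr2, higher, against 3.44% of all genes. The 2 lower at P10 were Syt1 (-2.36 ± 0.56), a synaptic vesicle calcium sensor gene, and Plat (-1.68 ± 0.45), which encodes tissue plasminogen activator. The call of Plat was lost without replicate 1 or 2 of EMM (-1.45 and -1.27) or replicate 1 or 2 of Serum/LIF (-1.59 and -1.69, adjusted p from 0.0117 to 0.0358 over the 4 fits). Ahnak differed by 0.91 ± 0.16 and 0.48 ± 0.16, under 2-fold. Dysf, which encodes the membrane repair protein dysferlin, read 311 ± 19.6 (SD, n = 3) in Serum/LIF at P10, 164 ± 4.73 in EMM and 4.63 ± 2.68 in 2i/LIF, with a log2 fold change of -5.91 in 2i/LIF.

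In 2i/LIF at P10 the 2 partners called were Dysf and Syt1, both lower, the latter with 0 to 1 counts in 2i/LIF against 32 to 53 in Serum/LIF, where 11.6% of all genes were called higher and 14.8% lower. At P20 1 was higher, Ahnak (1.01 ± 0.16), and 5 were lower, against 6.77% and 15.5%. These were Dysf (-4.77 ± 0.24), Ryr2 (-1.21 ± 0.18), Plat (-1.83 ± 0.43), Syt1 (0 to 4 counts against 21 to 46) and Fgf1, the growth factor that S100A13 helps to release (0 to 6 counts against 21 to 44). The call of Plat was lost without replicate 3 of Serum/LIF (-1.41, adjusted p = 0.0119), and that of Ahnak fell below 2-fold in several alternatives.

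**Figure D5:**
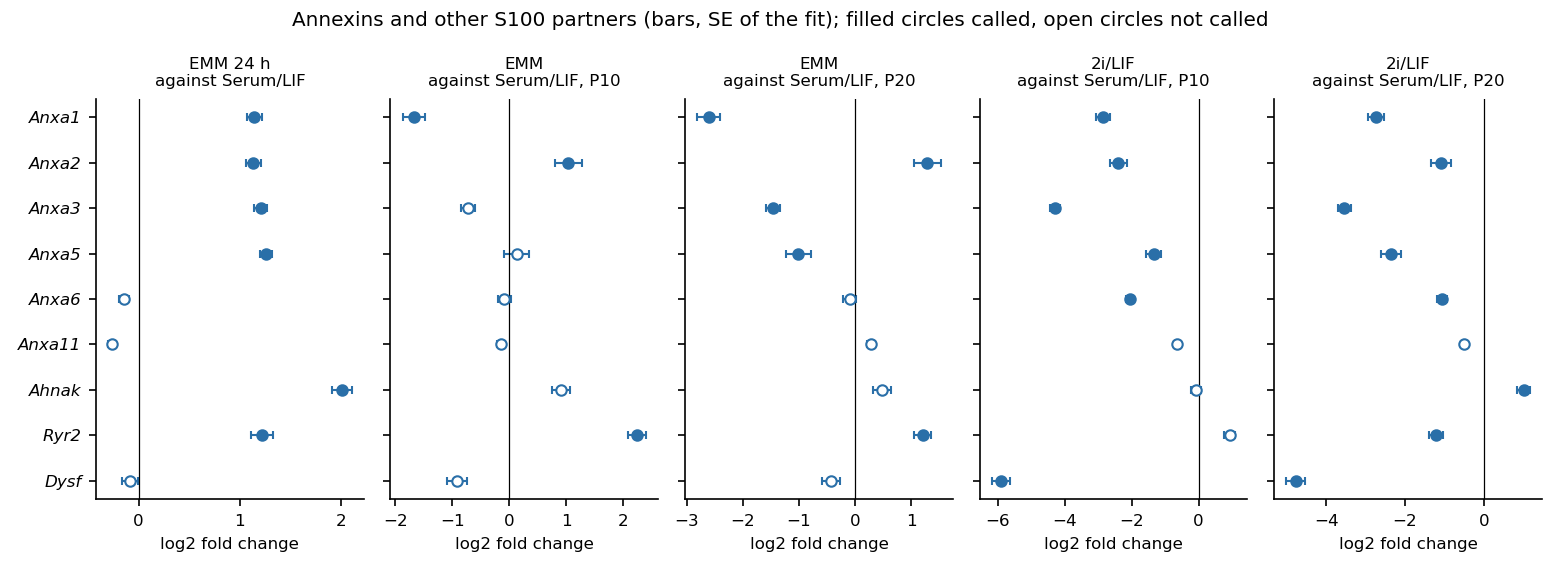
Log2 fold changes (x axes, a scale of its own for each panel) of 6 annexins and 3 other partners of S100 proteins in EMM and 2i/LIF against Serum/LIF, with the SE of the fit as bars, filled circles for genes called by edgeR and open circles for the others. Anxa2 lies right of 0 in the 3 EMM panels and left of it in both 2i/LIF panels.

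Of the other genes that start within 250 kb of a member, 13 passed the filter in the time course and 12 in the passages. At 24 h in EMM their log2 fold changes ran from -0.57 to 0.94 (S100a14), a range above which S100a1 and S100a13 lay and within which S100a6, S100a10 and S100a11 lay, and their median was 0.11. Called higher at 3 h were S100a14 and Tchh (1.02 ± 0.14), which encodes the hair follicle protein trichohyalin, against 1.70% of all genes called higher. At 9 h S100a14 alone was called higher, against 2.05% of all genes, and S100a14 passed the filter through these early groups. In EMM at P10 the 1 called was Npr1 (1.12 ± 0.13), a natriuretic peptide receptor gene, 1 of 12 against 6.67% of all genes called higher. In 2i/LIF against Serum/LIF 3 of the 12 were called at P10, with Slc27a3 higher (1.05 ± 0.12) and S100a16 and Tchh lower (-2.06 ± 0.64), and 4 at P20, with S100a14, which passed the filter through this group, and Slc27a3 (1.32 ± 0.12) higher and S100a16 and Tchh lower (-2.19 ± 0.56). The shares of all genes there were 11.6% higher and 14.8% lower at P10 and 6.77% and 15.5% at P20.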

How the data were processed

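RNA-seq of the ESC line E14tg2a was analysed in 12 time-course and 18 passage libraries. The authors deposited whole read counts per gene for the time course (the submitters' notes name STAR, featureCounts and DESeq2, the study's methods name HTSeq, and genome build mm10) and estimated counts from Salmon for the passages. The study's methods describe sorting reads by intron and exon and counting them per class, but not which class the first table holds. The strand setting of that table is not given in the sources used here. Of the deposited estimated counts 9.982% were not whole, and they were rounded.

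Groups came from the sample labels, and replicate numbers from the titles, which for the EMM time-course libraries differ from those in the descriptions (2 to 4 in place of 1 to 3). The libraries are described as independent experiments. No pair of replicates agreed within sampling noise. Each table was fitted separately with edgeR 4.0.16 in R 4.3.3 (filterByExpr, TMM scaling, 1 quasi-likelihood model over all groups), with Benjamini-Hochberg adjustment over all tested genes. A call needed an adjusted p under 0.01 and a log2 fold change above 1, and an interaction only the former. Members and lists (annexins, S100 partners, other S100 genes, cell type markers) were chosen with earlier results of these data known. All members were named, as were other S100 genes that passed the filter, annexins, partners and neighbours that were called against Serum/LIF at 24 h or in the passages, Anxa11, and the 2 genes best correlated with each member. The 5 comparisons of EMM with Serum/LIF were not tested for the members.

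Replicate numbers were taken to pair libraries where the deviations of all 3 same-numbered pairs correlated above 0.1 over genes. P20 against P10 in 2i/LIF met this (0.299, 0.134 and 0.224), and EMM 9 h against Serum/LIF met it for 2 of 3 pairs (-0.0039, 0.164 and 0.207). The block changed no member's call of P20 against P10 in 2i/LIF. Alternatives were other scalings, filters, DESeq2 1.42.0, fits of the compared groups alone, a replicate block, each library left out in turn and, chosen after seeing the data, leaving out the 2 libraries under 8000000 counts.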

Additional observations from a re-analysis of the deposited data

Results flagged for a closer look

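The difference between media itself differed between P10 and P20 for 4 members, by the interaction term of the edgeR model. Between 2i/LIF and Serum/LIF this difference of log2 fold changes (P20 minus P10) was -1.28 for S100a1 (adjusted p = 0.00978, and 0.0136 with the replicate block, which ends the call), 1.13 for S100a10 (adjusted p = 0.00122) and 3.74 for S100a6 (adjusted p = 0.000111). Between EMM and 2i/LIF it was 2.53 for S100a1 (adjusted p = 5.40e-06), 1.52 for S100a13 (adjusted p = 0.00784), -1.65 for S100a10 (adjusted p = 2.08e-05) and -3.39 for S100a6 (adjusted p = 0.000176). The S100a13 call was lost in 7 of the 12 fits that left out 1 library.

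For 3 members every EMM library lay above its Serum/LIF controls after 24 h and every EMM library lay below them at 1 passage or both, P10 and P20 for S100a6 and only P20 for S100a10 and S100a11. At P10 the EMM libraries of S100a10 lay above Serum/LIF (0.25) and those of S100a11 overlapped it. The log2 fold change was 0.63 at 24 h and -2.62 at P10 for S100a6, 0.47 at 24 h and -0.27 at P20 for S100a10, and 0.88 at 24 h and -0.33 at P20 for S100a11. These pairs come from separate experiments with separate processing, and the difference within each pair was not tested.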

How the results depend on the processing

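Of 1024 recomputed member values, 930 kept their direction and side of the threshold or moved by less than 1 SD. Of the rest, 44 were no longer past the threshold, 14 newly passed it and 32 changed sign. The last 4 were not fold changes. They were the numbers of best correlated genes shared between Pearson and Spearman correlation, for S100a13, S100a6, S100a10 and S100a11. The sign changes concerned values near 0 in the main fit, except for S100a13 in EMM against 2i/LIF at P20. That value was 0.34 in the main fit and -0.0073 without replicate 2 of 2i/LIF at P20. For EMM against 2i/LIF at P10, S100a11 was 0.19 without libraries under 8000000 counts, and -0.28 to 0.19 with 1 library left out. At P20, S100a10 was 0.0206 with library totals, 0.0061 without a filter and 0.0255 with at least 10 counts in every library (-0.0682 to 0.0736 with 1 library left out). S100a11 was then 0.0183, 0.0054 and 0.0248, and 0.0273 with DESeq2 (-0.30 to 0.20 with 1 left out), and S100a13 ran from -0.0073 to 0.59. The S100a11 interaction of 2i/LIF and Serum/LIF was -0.0602 with library totals, -0.0031 with DESeq2 and -0.0021 with only the groups compared (-0.20 to 0.29 with 1 left out), and that of EMM and 2i/LIF was -0.49 without libraries under 8000000 counts (-0.28 to 0.28). With the replicate number as a block, S100a11 in EMM against 2i/LIF at P20 was 0.0087. The S100a1 interaction of 2i/LIF and Serum/LIF was then -1.26 (edgeR, adjusted p = 0.0136), which left 0 members lower. Outside P20 against P10 in 2i/LIF the replicate numbers did not meet the rule for pairing, which does not show that those libraries were unpaired.

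Counts of members called moved by at most 2. The filter of at least 10 counts in every library removed S100a6, which gave 1 higher in EMM against 2i/LIF at P10 and in the first interaction, 0 higher in P20 against P10 in 2i/LIF, 1 lower in 2i/LIF at P10 and in the second interaction, and 0 lower in EMM at P10 and P20, in 2i/LIF at P20 and in P20 against P10 in Serum/LIF. Under it S100a13 lost its call in 2i/LIF at P20 (adjusted p = 0.0121), leaving 1 higher, and S100a1 passed 2-fold in EMM against 2i/LIF at P20 and in P20 against P10 in EMM (1.01 and 1.04), giving 1 higher in each. Library totals gave 1 higher in 2i/LIF at P20, 1 higher in P20 against P10 in EMM and 0 lower in Serum/LIF. Fitting only the groups compared gave 1 higher in 2i/LIF at P20, 0 higher and 1 lower in P20 against P10 in 2i/LIF, 0 lower in the first interaction and 1 higher in the second. Without libraries under 8000000 counts there were 1 higher in 2i/LIF at P20, 2 higher in EMM against 2i/LIF at P20 and 1 higher in P20 against P10 in EMM. DESeq2 gave 1 higher in P20 against P10 in EMM and 0 lower in Serum/LIF, no filter gave 1 higher there in EMM and 0 lower in the first interaction, and DESeq2 size factors gave 0 lower in the first interaction. Without a fold threshold there were 1 higher in EMM against 2i/LIF at P20, 1 higher and 1 lower in P20 against P10 in EMM, and 2 higher in 2i/LIF. With 1 library left out the counts ran from 1 to 2 higher in 2i/LIF at P20, 0 to 2 higher in EMM against 2i/LIF at P20, 0 to 1 higher in P20 against P10 in EMM, 1 to 2 higher and 1 to 2 lower in P20 against P10 in 2i/LIF, 1 to 2 higher in the second interaction, 1 to 2 lower in EMM against 2i/LIF at P10, 0 lower throughout in Serum/LIF and 0 to 1 lower in the first interaction. Other causes were not tested. Among other genes, Ahnak lost its call in 2i/LIF at P20 (1.01) in 9 of 14 alternatives, always by falling below 2-fold (0.88 to 1.00). The 2 libraries under 8000000 counts limit the precision of EMM at P10 and 2i/LIF at P20.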
